A study of Mus musculus with 24 samples.

Results

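The genes described here are the nuclear subunits of the mitochondrial respiratory chain and of ATP synthase, chosen by name alone: every symbol of the form Nduf with a subunit letter and number, Sdha to Sdhd, Uqcr, Cox4 to Cox8 or Atp5. The rule gave 83 genes of 22926 symbols, of which 36 were assigned by symbol to complex I, 4 to complex II, 8 to complex III, 18 to complex IV and 17 to complex V. RNA-seq was carried out on mouse embryonic stem cell (ESC) clones at D0, with leukemia inhibitory factor (LIF), and at D6, after LIF had been withdrawn for 6 days. At either day, WT and Tet1-/- were represented by 3 clones, and Tet2-/-, DKO (with Tet1 and Tet2 mutated) and TKO (with Tet3 mutated as well) by 2, with 1 library a clone and 24 libraries in all. All clones carried an eGFP reporter knocked into the Oct4 (Pou5f1) locus and descended from 1 parental clone of a line derived from 129/SVj mice, grown without feeder cells. The knockout clones were made by CRISPR indels, so that differences between genotypes also hold differences between single clones. The clones were the same at D0 and D6 except for 1 of the 3 Tet1-/- clones, which was replaced by another.

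Complex I (NADH dehydrogenase) and complex II (succinate dehydrogenase, also an enzyme of the TCA cycle) pass electrons to ubiquinone, complex III passes them on to cytochrome c, and complex IV (cytochrome c oxidase) passes them to oxygen. Complexes I, III and IV pump protons, and complex V (ATP synthase) uses the gradient to make ATP. Most subunits are encoded in the nucleus and have to be matched with the few made from mitochondrial DNA, which were not among these genes. Pluripotent stem cells are known for high glycolysis beside respiration, and mitochondria change in shape and activity as the cells leave pluripotency. Some symbols do not follow current knowledge of the complexes: the Ndufa4 protein is found in complex IV, Cox7a2l joins complexes III and IV, and Atp5sl takes part in building complex I.

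Library totals were 21729346 to 37290208 counts at D0 and 18400463 to 34219640 at D6. The subunit genes took 1.56 to 1.77% of all counts at D0 and 1.02 to 1.24% at D6. Levels are given as CPM, read counts relative to the library's total, with TMM scaling. A gene was called where edgeR's quasi-likelihood test, adjusted over all genes tested by Benjamini-Hochberg, gave an adjusted p under 0.05. Of the 83 genes, 81 passed the filter on low counts at D0 and over both days and 80 at D6. Cox6a2 and Cox8b passed nowhere, and Cox8c did not pass at D6. The targeted genes kept reads after the indels: Tet2 had 87.9 to 93.9 CPM in WT and 20.9 to 23.2 CPM in Tet2-/- at D0, while Tet1 had 220 to 431 CPM in WT and 93.4 to 358 CPM in Tet1-/-, so that Tet1 RNA overlapped and does not check that label. Tet3 had 5.05 to 7.94 CPM in WT and 2.84 to 4.43 CPM in TKO at D0. In the clones with several genes mutated, Tet1 had 231 to 373 CPM in DKO and 41.7 to 567 CPM in TKO at D0, overlapping WT, and Tet2 had 22.3 to 55.7 and 8.16 to 42.5 CPM, below WT. At D6, Tet2 had 5.73 to 9.99 CPM in DKO and 10.5 to 16.2 CPM in TKO, the latter overlapping WT. At D6 the RNA of Tet2 does not check the Tet2-/- label, with 15.9 to 16.6 CPM in Tet2-/- against 12.3 to 16 CPM in WT, nor does Tet1 RNA check Tet1-/- (82.4 to 190 and 108 to 125 CPM), while Tet3 had 7.72 to 8.74 CPM in TKO against 13.3 to 21 CPM in WT. Zfp42, Nanog and 5 other pluripotency markers summed to 3930 to 4500 CPM in the D0 libraries, which goes with the label of ESC. In bulk RNA, fewer cells of a type and less RNA per cell cannot be told apart.

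Promoters are shown because the subunit genes moved together over the days. RefSeq held the window from 250 bases before to 50 after the start for 69 of the 83 genes, 3 of them under a newer symbol. The letters searched, on both strands, were GCGCA and GCGC with 1 base between them for NRF1, CCGGAAG for the ETS family (which includes GABP), AAGATGG for YY1 and TGACGTCA for CREB, and none of these contains another. NRF1 letters were in 16 of the 69 windows (23.2%) against 4.78% of 27025 windows of all genes. ETS letters were in 15 (21.7% against 9.12%), YY1 letters in 11 (15.9% against 6.48%) and the CREB site in 4 (5.8% against 1.88%). A TATAAA box was in 7 (10.1% against 14.2%). None of the NRF1, ETS, YY1 or CREB letters was in 29 of the 69 windows. Median GC content was 57.3% in these 69 windows and 52.7% in all. The windows below (build GRCm38.p6, printed 5′ to 3′ on the gene's strand) stand for 1 gene of each complex with several such letters, in capitals, and for Atp5g1, the gene of over 1 CPM with the largest fall in WT, which held none of them. They are at chr16:37654319-37654618 (minus strand) for Ndufb4, chr13:74350191-74350490 (minus) for Sdha, chr9:108936398-108936697 (plus) for Uqcrc1, chr19:7217567-7217866 (minus) for Cox8a, chr11:115419870-115420169 (minus) for Atp5h and chr11:96075582-96075881 (minus) for Atp5g1.
Ndufb4: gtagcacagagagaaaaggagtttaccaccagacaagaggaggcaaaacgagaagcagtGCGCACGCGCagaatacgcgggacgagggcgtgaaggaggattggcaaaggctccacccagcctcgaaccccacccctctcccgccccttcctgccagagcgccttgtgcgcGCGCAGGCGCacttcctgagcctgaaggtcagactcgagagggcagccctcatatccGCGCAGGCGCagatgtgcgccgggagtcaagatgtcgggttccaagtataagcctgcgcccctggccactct
Sdha: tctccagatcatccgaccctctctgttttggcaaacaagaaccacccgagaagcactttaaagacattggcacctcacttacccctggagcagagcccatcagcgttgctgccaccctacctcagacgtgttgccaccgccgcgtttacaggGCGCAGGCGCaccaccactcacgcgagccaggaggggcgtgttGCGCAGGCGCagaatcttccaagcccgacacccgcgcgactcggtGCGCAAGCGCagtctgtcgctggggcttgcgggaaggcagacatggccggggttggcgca
Uqcrc1: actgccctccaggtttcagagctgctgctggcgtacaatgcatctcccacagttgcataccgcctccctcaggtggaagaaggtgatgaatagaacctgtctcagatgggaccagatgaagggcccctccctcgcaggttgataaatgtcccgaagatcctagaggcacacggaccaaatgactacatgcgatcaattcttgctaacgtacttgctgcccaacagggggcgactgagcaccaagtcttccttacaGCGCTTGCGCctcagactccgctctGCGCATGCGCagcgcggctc
Cox8a: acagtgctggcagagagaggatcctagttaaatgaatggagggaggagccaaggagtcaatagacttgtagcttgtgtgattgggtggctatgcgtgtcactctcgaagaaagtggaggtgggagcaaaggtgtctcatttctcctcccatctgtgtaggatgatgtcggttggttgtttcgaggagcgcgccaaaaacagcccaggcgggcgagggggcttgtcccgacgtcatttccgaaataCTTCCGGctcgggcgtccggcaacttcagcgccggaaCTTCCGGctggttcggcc
Atp5h: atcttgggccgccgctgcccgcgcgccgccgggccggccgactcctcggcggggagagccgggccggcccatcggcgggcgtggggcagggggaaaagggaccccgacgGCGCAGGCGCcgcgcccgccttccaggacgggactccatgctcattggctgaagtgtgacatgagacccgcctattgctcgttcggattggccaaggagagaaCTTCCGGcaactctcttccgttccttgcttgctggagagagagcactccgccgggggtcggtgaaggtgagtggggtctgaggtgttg
Atp5g1: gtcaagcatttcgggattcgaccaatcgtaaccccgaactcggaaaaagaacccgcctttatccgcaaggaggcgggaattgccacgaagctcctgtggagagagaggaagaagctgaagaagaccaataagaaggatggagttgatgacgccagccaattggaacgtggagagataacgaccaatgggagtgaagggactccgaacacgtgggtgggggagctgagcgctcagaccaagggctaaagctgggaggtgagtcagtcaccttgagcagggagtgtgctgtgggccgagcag
A match of letters is a description of the window and not a bound site. Ndufb4 and Sdha each held 3 NRF1 matches, Uqcrc1 held 2, Cox8a held 2 ETS matches and Atp5h held 1 of each kind.

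The first question was how the respiratory chain genes changed as WT cells were kept without LIF. In WT, 72 of the 81 genes tested fell from D0 to D6 and 2 rose, whereas 32.8% of all 15639 genes tested fell and 33.5% rose. The median log2 fold change was -0.66 over the subunit genes and 0.01 over all genes. All of complexes II and III fell (4 of 4 and 8 of 8), as did 32 of 36 complex I genes, 15 of 17 complex V genes and 13 of the 16 complex IV genes tested. The median log2 fold change was -0.62 for complex I, -0.43 for complex II, -0.80 for complex III, -0.75 for complex IV and -0.68 for complex V. Most falls were under 2-fold: 11 of the 72 that fell in WT did so by more than 2-fold, against 2073 of 5132 over all genes, which is 13.6% of the subunit genes tested and 13.3% of all genes tested.

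**Figure D1:**
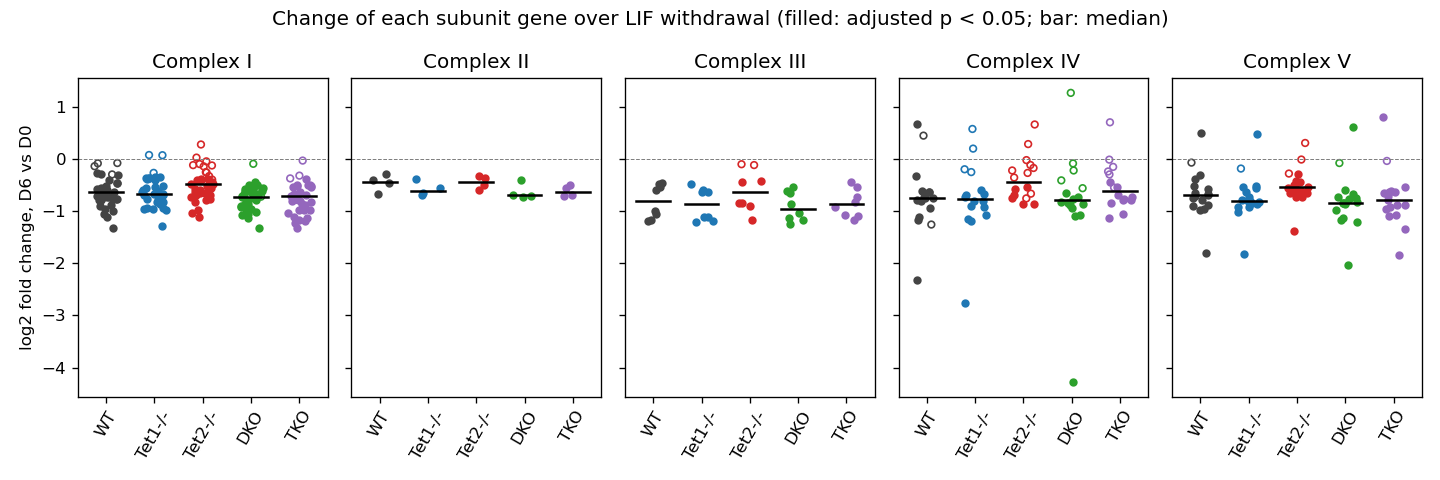
Log2 fold change from D0 to D6 (vertical axis) of each subunit gene tested, by complex (panels) and genotype (horizontal axis). Each point is a gene, filled where the adjusted p was under 0.05, and bars are medians, which lie below 0 in every complex and genotype and reach from -0.43 to -0.80 in WT.

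Summed over all members, the level was 16630 to 18780 CPM in the 12 D0 libraries and 9461 to 12210 CPM in the 12 D6 libraries, so the days did not overlap. The same held for each complex. Complex V had the highest sums, 7764 to 8572 CPM at D0 and 4228 to 5459 CPM at D6, and complex II the lowest, 847 to 952 CPM and 627 to 708 CPM. Complex IV had 2124 to 3195 CPM at D0 and 1398 to 2024 CPM at D6. Its 2 TKO clones at D0 had 3195 CPM (replicate 1) and 2124 CPM (replicate 2), an SD of 757 against 65.8 to 186 in the other groups. Over all members, the mean D6 sum was 60.8% of the mean D0 sum in WT, 60.4% in TKO, 58.3% in DKO, 59.2% in Tet1-/- and 67.5% in Tet2-/-.

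**Figure D2:**
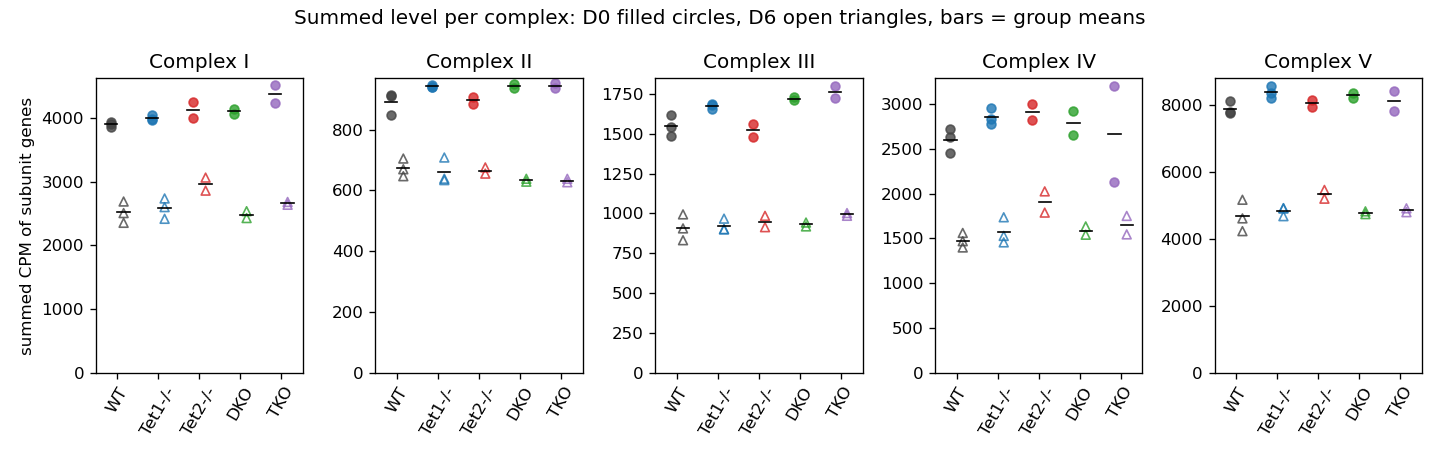
Summed CPM (vertical axis, from 0) of the genes of each complex in every library, by genotype (horizontal axis). Filled circles are D0 libraries, open triangles D6 libraries and bars group means; the D0 and D6 libraries do not overlap in any complex, and the TKO D0 clones lie apart in complex IV (3195 and 2124 CPM).

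Among the catalytic and core subunits of complex I, Ndufv1, which binds NADH, had 208, 187 and 216 CPM in WT at D0 and 107, 91.5 and 108 CPM at D6. Every D6 library of any genotype was below every D0 library, and the fall in WT was 1.00 ± 0.0951 on the log2 scale (SE, adjusted p = 5.76e-08). Ndufs1, an iron-sulfur subunit of the same arm, fell from 351, 360 and 377 CPM to 208, 194 and 187 CPM in WT. Its log2 fold change was -0.89 ± 0.0863 (SE, adjusted p = 7.52e-08). The largest falls of complex I in WT were those of the accessory subunits Ndufb10 (-1.32 ± 0.1, SE), Ndufa5 (-1.11 ± 0.187) and Ndufb4 (-1.06 ± 0.134). Ndufb10 had 96.6, 93.0 and 98.5 CPM in WT at D0 and 41.7, 34.1 and 39.2 CPM at D6. Its highest D6 library in any genotype, 52.2 CPM, was below its lowest D0 library, 85.5 CPM.

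In complex II, Sdha, the flavoprotein that oxidizes succinate, had the smallest called change in WT, -0.28 ± 0.0623 (SE, adjusted p = 0.000573). It lay between 369.8 and 415 CPM at D0 and between 280.3 and 319 CPM at D6, again with no overlap, but was not called with library totals (-0.14, adjusted p = 0.0527). Sdhb, the iron-sulfur subunit, had the largest fall of the complex, -0.67 ± 0.0872. The membrane anchors Sdhc and Sdhd fell by 0.40 and 0.46 on the log2 scale, and the levels of Sdhd overlapped between days over all genotypes.

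In complex III, the core protein Uqcrc1 had 437, 448 and 413 CPM in WT at D0 and 232, 184.5 and 212 CPM at D6. Its fall of 1.05 on the log2 scale (SE 0.0824, adjusted p = 5.93e-09) was one of the most precise of the chain, and its fall in the other genotypes lay between 1.13 and 1.20. The Rieske iron-sulfur protein Uqcrfs1 fell less, by 0.48 in WT. The small subunits Uqcrq (-1.18 ± 0.15, SE) and Uqcr11 (-1.17 ± 0.161) had the largest falls of the complex in WT. Uqcr11 was also low in TKO replicate 2 at both days, with 51.3 CPM at D0 and 25.1 CPM at D6, against 84.5 and 38.4 CPM in replicate 1, which is another clone.

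In complex IV, Cox4i1, the widely expressed form of a regulatory subunit, had 819, 656.5 and 758 CPM in WT at D0 and 321, 315 and 355.5 CPM at D6. All D6 libraries of any genotype were below all D0 libraries, and the fall in WT was 1.17 on the log2 scale (SE 0.154, adjusted p = 2.73e-06). Cox7c fell by 1.11 and Cox5a by 0.78. Cox7a2l, which joins complexes III and IV, changed by -0.32 ± 0.13 in WT (adjusted p = 0.0361) and was called in no other genotype, nor in WT with library totals, DESeq2 or its size factors (adjusted p = 0.267, 0.0553 and 0.0517).

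Complex IV has forms that are mostly made in particular tissues, and these were low here. Compared per length of transcript, the testis form Cox6b2 made up 3.76 to 9.25% of Cox6b1 and Cox6b2 together at D0 and 5.49 to 12.6% at D6. The heart and muscle form Cox7a1 made up 7.41 to 19.2% of Cox7a1 and Cox7a2 at D0 and 7.54 to 13.3% at D6. Cox4i2, Cox7b2 and Cox8c each stayed under 1% of their pair in every library. Cox6a2 had 0 to 5 counts and Cox8b 0 to 1 count a library, so that nothing can be said of their change. Cox8c, a testis form, had 10, 20 and 21 counts in WT at D0 and 10, 0 and 1 counts at D6, and is among the genes counted as lower in WT (adjusted p = 0.00725 from edgeR). It passed the filter on low counts at D0 and over both days mainly through the WT and Tet1-/- D0 libraries, where it is high, so a call could hardly be other than lower against these, and its calls are not read as results.

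Cox6b2 was the one complex IV gene that rose in WT, from 14.1, 8.11 and 7.51 CPM to 15.1, 18.6 and 14.01 CPM. The log2 fold change was 0.68 ± 0.291 (SE, adjusted p = 0.0477). The lowest D6 library was just below the highest D0 library. In the knockouts the change lay between -0.75 and -0.01 and was not called.

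In complex V, the catalytic subunits Atp5a1 and Atp5b were the most abundant members per length with Cox4i1. Atp5b had 3148, 2922 and 3211 CPM in WT at D0 and 2022, 1593 and 1760.0 CPM at D6, a log2 fold change of -0.79 ± 0.0824 (SE, adjusted p = 1.8e-07). Atp5a1 changed by -0.71 ± 0.0857. Both had no overlap between the D0 and D6 libraries of any genotype.

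Atp5g1, Atp5g2 and Atp5g3 encode the same mature subunit c, which forms the rotating ring, with different targeting peptides. Atp5g1 had 178, 195 and 195 CPM in WT at D0 and 70.8, 37.0 and 55.9 CPM at D6. Over all genotypes it had 162 to 310.2 CPM at D0 and 37.0 to 72.3 CPM at D6, so that the days lay far apart. Its log2 fold change was -1.79 ± 0.194 (SE) in WT, -1.85 ± 0.238 in TKO, -2.04 ± 0.239 in DKO, -1.81 ± 0.194 in Tet1-/- and -1.37 ± 0.234 in Tet2-/-.

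Atp5g3 fell by 0.66 in WT, and Atp5g2 had a log2 fold change of -0.07, whose sign turned when libraries were scaled by their totals. Per length, Atp5g1 gave 26.2 to 34.5% of the 3 genes together at D0 and 11.8 to 20.3% at D6. The share of Atp5g2 went from 3.73 to 5.81% at D0 to 7.32 to 10.5% at D6, and that of Atp5g3 from 61.8 to 68.5% to 69.6 to 78.4%. Atp5g1 has 1 close copy in the genome, at 99.3% identity, and Atp5g2 has 3, so how reads were split between gene and copy is uncertain. Of the 83 genes, 20 have such copies at 95% identity or more, with the same limit. They include Cox7c (5 copies), Uqcr11 and Cox5b (2 each), and Cox7a2l, Uqcrh, Atp5f1, Atp5j2 and Atp5o (1 each). Atp5o also overlaps exons of Donson on its own strand. Atp5g1 lies at chr11:95930166-95936984 on the minus strand of mm9, the build of the counts.

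The other called fall of over 0.95 in complex V was that of Atp5o, a stalk subunit (-0.98 ± 0.0814), beside Atp5j2 (-0.96 ± 0.118). Atp5s, known as factor B of ATP synthase, rose in WT from 4.56, 4.65 and 4.71 CPM to 5.99, 6.45 and 7.23 CPM. The log2 fold change of Atp5s was 0.50 ± 0.164 (SE, adjusted p = 0.0119) in WT, 0.48 in Tet1-/-, 0.61 in DKO and 0.81 in TKO, all called, but with the clone as replicate block the call in Tet1-/- was lost (0.41, adjusted p = 0.129). In Tet2-/- it was 0.31 ± 0.201 (adjusted p = 0.229).

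**Figure D3:**
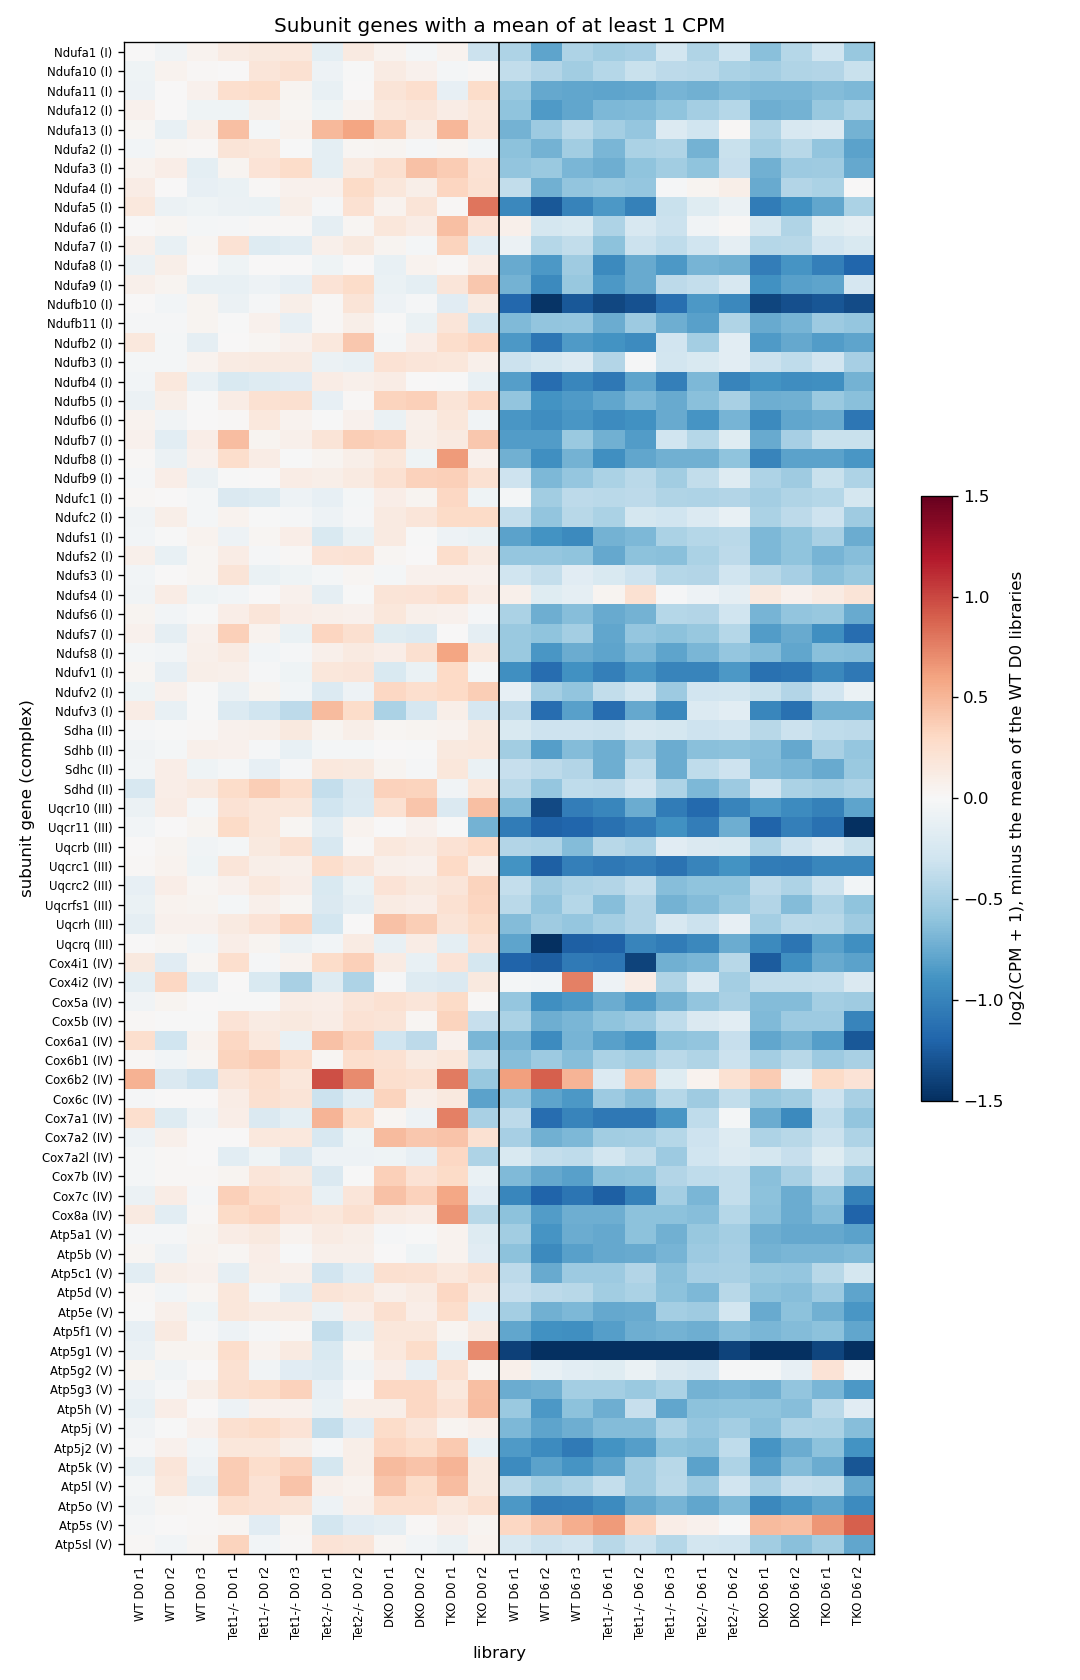
Log2(CPM + 1) of the 78 subunit genes with a mean of at least 1 CPM (rows, by complex) in the 24 libraries (columns, D0 left and D6 right of the line), minus the mean of the WT D0 libraries; colours end at 1.5 in each direction. Most rows turn blue (lower) at D6, with Atp5g1 the darkest, and Atp5s (apart from Tet2-/-, near 0) and, in WT, Cox6b2 are red (higher).

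The next question was whether the knockouts changed in the same way over the days. In Tet1-/-, 72 of 81 subunit genes fell and 1 rose (31.3% and 32% of all genes). In DKO the counts were 72 and 1 (28% and 27.6% of all genes), and in TKO 69 and 1 (25.2% and 25.2%). In Tet2-/-, 55 fell and 0 rose, against 19.6% and 20.4% of all genes, and the median over the subunit genes was -0.50. At an unadjusted p under 0.05, 61 subunit genes of Tet2-/- passed in either direction (75.3%, against 48.3% of all genes). In a separate fit DESeq2 called 56 subunit genes lower and 0 higher, with 3125 and 3348 of all genes. Without Tet2-/- D0 replicate 2 the count in Tet2-/- was 36 (11.4% of all genes fell), and without Tet2-/- D6 replicate 1 it was 34 (9.8%). With library totals in place of TMM, the median log2 fold change of all genes was 0.161 in WT (0.015 with TMM), 0.187 in TKO (0.011), 0.196 in DKO (-0.012), 0.207 in Tet1-/- (0.003) and 0.138 in Tet2-/- (-0.001). This scaling left 66, 63, 66, 65 and 41 subunit genes lower in that order, while of all genes 6055 rose and 4173 fell in WT (5234 and 5132 with TMM), 6275 and 3482 in Tet1-/- (5009 and 4902 with TMM), 3973 and 2036 in Tet2-/- (3183 and 3067), 5411 and 3007 in DKO (4322 and 4379) and 4971 and 2731 in TKO (3948 and 3948).

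Over all 5 genotypes, 53 subunit genes fell in every one, 65.4% of those tested against 11.6% of all genes. These were 24 genes of complex I, 4 of complex II, 6 of complex III, 5 of complex IV and 14 of complex V. In 51 genes (63% against 11.6% of all genes tested) every D6 library was below every D0 library. Atp5g2, Atp5s, Cox4i2, Cox6b2, Cox7b2, Ndufs4 and Ndufs5 were lower in no genotype. Ndufs4, an accessory subunit needed for stable complex I, had 68.9 to 90.7 CPM at D0 and 66.6 to 89.0 CPM at D6, with full overlap. Ndufs5 had 0.533 to 1.43 CPM at D0 and has a near-identical copy in the genome, so its level is uncertain.

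In Tet2-/-, 13 genes were not called that fell in the other 4 genotypes, among them Ndufs1, Ndufa5, Ndufa4, Uqcrh, Cox7a2 and Cox7b. They were 16% of the subunit genes tested against 6.25% over all genes, and 19.7% of the 66 subunit genes that fell in the other 4 against 35.1% (978 of 2785) over all genes, and neither difference was tested. The difference of the change from that of WT was tested for every gene. In Tet2-/-, 6 of 81 subunit genes had a smaller fall than in WT and 1 gene, Cox6b2, a lower change, while 7.87% and 8.11% of all genes were called in these directions, so that the 6 (7.41%) were close to the share of all genes. The median difference was 0.16 over the subunit genes and 0.01 over all genes.

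Ndufs1 had the clearest difference. It had 308 and 338.5 CPM at D0 and 269 and 275 CPM at D6 in Tet2-/-, and the difference from WT was 0.64 ± 0.135 (SE, adjusted p = 0.00695). The Tet2-/- libraries were below those of WT at D0 and above them at D6. Cox7a2, the widely expressed form of its subunit, had 123 and 139 CPM at D0 and 116 and 126 CPM at D6 in Tet2-/-, against 137, 152 and 145 CPM and 102, 87.4 and 90.1 CPM in WT. The difference was 0.52 ± 0.136 (adjusted p = 0.0164), and the Tet2-/- days overlapped while the WT days did not.

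The hinge protein Uqcrh of complex III (0.50 ± 0.155, SE), Cox7b (0.49 ± 0.158) and the stalk subunits Atp5j (0.45 ± 0.128) and Atp5f1 (0.43 ± 0.128) had differences in the same direction. Cox6b2 differed the other way, by -1.43 ± 0.458 (adjusted p = 0.0411), with 19.6 and 16.3 CPM at D0 and 9.93 and 11.4 CPM at D6 in Tet2-/-. Ndufa5 had a larger difference than the 6 genes with a smaller fall, 0.86 ± 0.291, but missed the threshold (adjusted p = 0.0511). It passed with the clone as replicate block (adjusted p = 0.0207), with DESeq2 (0.0286), with library totals (0.0445) and without a filter on low counts (0.0449). In the last 2 of these fits Cox7b lost its call (adjusted p = 0.0504 and 0.0562). The 7 calls became 0 without Tet2-/- D0 replicate 1 (1.24% and 2.05% of all genes) and 12 without WT D6 replicate 1 (11.9% and 11.7%). They numbered 3 without WT D0 replicate 2 or WT D6 replicate 2, and 2 without WT D0 replicate 3 or WT D6 replicate 3. They were also fewer without either Tet2-/- D6 library. Calls over all genes can move with the library left out, so these counts are not read as particular to the subunit genes.

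In TKO, 1 subunit gene differed from WT in its change, Atp5d, the delta subunit of complex V (2.8% of all genes were called higher and 3.17% lower). It had 255 and 225 CPM in TKO at D0 and 141 and 119 CPM at D6, against 209, 199 and 209 CPM and 162, 156 and 154.5 CPM in WT. The difference was -0.50 ± 0.146 (SE, adjusted p = 0.0479). The call of Atp5d was lost without a filter on low counts, with library totals, and without either DKO library of either day, either Tet2-/- D0 library, any WT D0 library, WT D6 replicate 2 or 3, Tet1-/- D0 replicate 2, Tet1-/- D6 replicate 1, TKO D0 replicate 1 or TKO D6 replicate 2. The count of subunit genes that differed in TKO was 4 without TKO D0 replicate 1 (3 higher and 1 lower, with 3.54% and 3.06% of all genes), 5 without replicate 2 (all lower, with 6.86% of all genes) and 3 without WT D6 replicate 1 (1 higher and 2 lower, with 6.23% and 6.26%). In Tet1-/- and DKO no subunit gene and 0% of all genes, in both directions, were called by edgeR for a difference in change. At an unadjusted p under 0.05 there were 1 subunit gene in Tet1-/- (1.23%, against 7.67% of all genes) and 5 in DKO (6.17% against 8.02%), and DESeq2 called 0 in both. The smallest adjusted p was that of Cox6b2 in Tet1-/- (0.647, difference -0.87 ± 0.411) and of Atp5d in DKO (0.554, difference -0.35 ± 0.146).

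**Figure D4:**
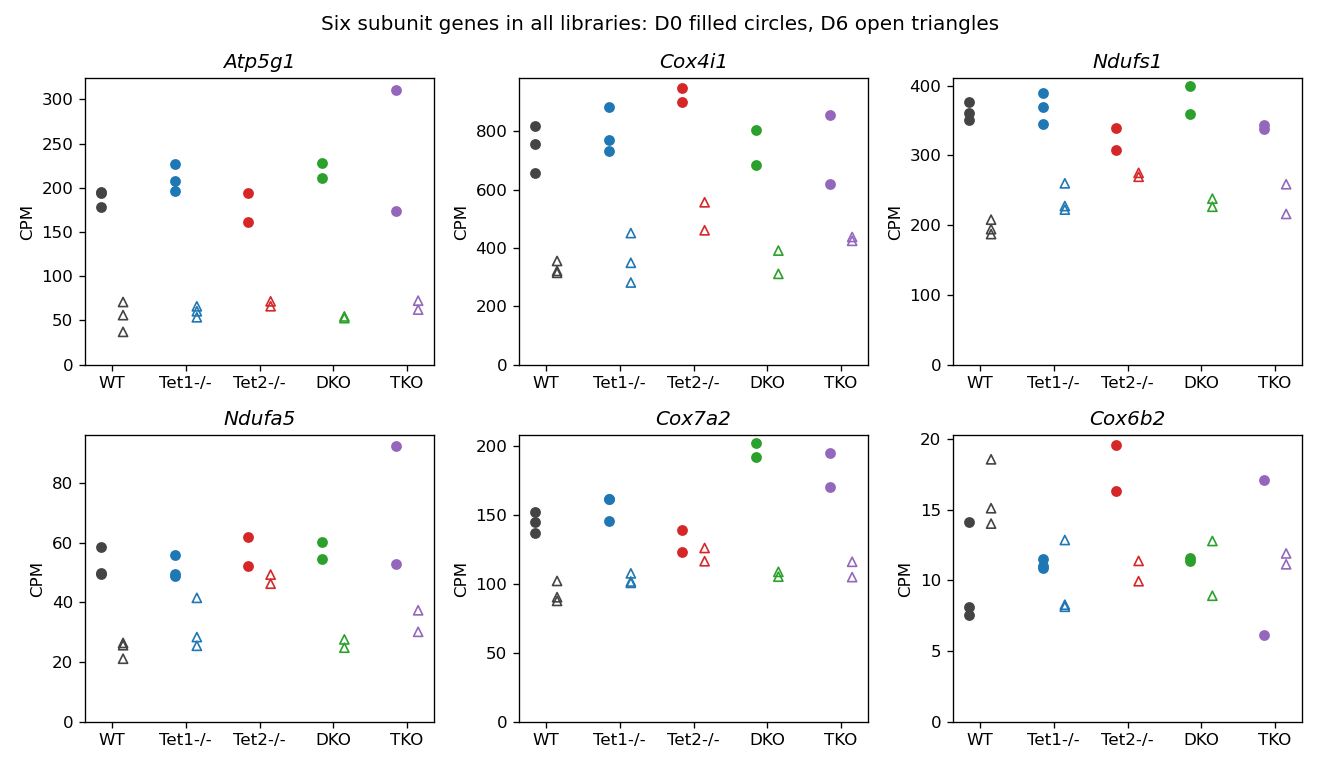
CPM (vertical axes, from 0) of 6 subunit genes in every library by genotype (horizontal axes), D0 as filled circles and D6 as open triangles. Atp5g1 and Cox4i1 fall with no overlap in any genotype, Ndufs1, Ndufa5 and Cox7a2 are higher at D6 in Tet2-/- than in WT, and Cox6b2 is higher at D6 in WT (14.01 to 18.6 CPM).

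The genotypes were then compared with WT within a day. The 4 comparisons of a day share its 3 WT libraries. At D0, few subunit genes were called. In Tet2-/-, Ndufa13, a subunit also known as GRIM-19, was higher, with 121 and 129.9 CPM against 87.3, 79.5 and 90.7 CPM in WT, and 5.02% of all genes were called higher. The groups did not overlap, and the log2 fold change was 0.53 ± 0.148 (SE, adjusted p = 0.0443). With library totals Ndufa13 was not called (adjusted p = 0.0644), and Atp5j was called lower. The 1 gene counted as lower (4.79% of all genes were) was Cox8c, with 2 and 6 counts against 10, 20 and 21 in WT (adjusted p = 0.0257 from edgeR), which passed the filter at D0 only through WT and Tet1-/- libraries.

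In TKO, Ndufv2, an iron-sulfur subunit of complex I, was higher (4.44% of all genes), with 218 and 229.6 CPM against 169.7, 186 and 177 CPM in WT. The log2 fold change was 0.33 ± 0.0831 (adjusted p = 0.0305), and the groups did not overlap. The 1 gene counted as lower in TKO (4.17% of all genes) was again Cox8c, with 3 and 4 counts (adjusted p = 0.0327 from edgeR) and the same limit. In Tet1-/- no subunit gene was called by edgeR (0.00692% of all genes in each direction), with 8 at an unadjusted p under 0.05 (9.88%, against 12.6% of all genes) and 0 by DESeq2, and the smallest adjusted p was 0.242 for Atp5g3 (0.27 ± 0.0879). In DKO none was called either (0.0208% of all genes higher and 0.0277% lower), with 18 at an unadjusted p under 0.05 (22.2%, against 14.4% of all genes). The smallest adjusted p in DKO was that of Cox7a2 (0.0911, 202 and 191.5 CPM against 137 to 152 CPM in WT), and DESeq2 called Cox7a2 and Ndufb5 higher (with 136 of all genes). In TKO, DESeq2 called 9 subunit genes higher and 1 lower, with 935 and 854 of all genes.

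The D0 calls depended on the TKO libraries, which enter the shared estimate of the spread. Without TKO D0 replicate 1 or without replicate 2 there were 12 calls in Tet2-/- (6 higher, 6 lower), 9 in DKO (8 higher, 1 lower), 2 in Tet1-/- (both higher) and 19 in TKO. In the same fits the share of all genes called also rose, to 14.3 or 14.4% higher and 13.4% lower in Tet2-/-, 2.74 or 2.73% higher and 3.17 or 3.18% lower in DKO, and 1.86 or 1.87% higher in Tet1-/-. In TKO the 19 were 11 higher and 8 lower without replicate 1 (14.1% and 13.4% of all genes) and 18 higher and 1 lower without replicate 2 (10% and 7.64%), so the 2 clones went apart. Cox8a had 409 CPM in replicate 1 and 193 CPM in replicate 2, and Atp5g1 had 174 and 310.2 CPM. Without Tet2-/- D0 replicate 1 or 2, or without WT D0 replicate 2 or 3, Tet2-/- had 0 calls, and without WT D0 replicate 3 or DKO D0 replicate 2, TKO had 0. Leaving out either DKO D0 library or Tet1-/- D0 replicate 2 or 3 left 1 call in Tet2-/-, and leaving out DKO D0 replicate 1, Tet1-/- D0 replicate 2 or WT D0 replicate 1 or 2 left 1 in TKO. Tet2-/- had 3 calls without WT D0 replicate 1.

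At D6, Tet2-/- had 11 subunit genes higher than WT and 0 lower. Of all 15435 genes tested, 12.9% were higher and 15.6% lower, so that the share of subunit genes called higher (13.8%) was close to that of all genes. By symbol, 5 of the 11 genes were assigned to complex I, 1 to complex III, 4 to complex IV and 1 to complex V, and complex II had none. Those of complex I include Ndufa4, whose protein is found in complex IV. The median log2 fold change was 0.15 over the subunit genes and -0.03 over all genes.

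Ndufa5, an accessory subunit of the complex I arm, had the largest rise. It had 46.3 and 49.3 CPM in Tet2-/- and 26.4, 21.1 and 25.6 CPM in WT, with no overlap. The log2 fold change was 0.95 ± 0.197 (SE, adjusted p = 0.00897). Cox4i1 had 461 and 557 CPM against 321, 315 and 355.5 CPM in WT, a log2 fold change of 0.61 ± 0.174 (adjusted p = 0.0272).

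Ndufa4 had 256.5 and 265 CPM against 193, 151 and 165 CPM in WT (0.60 ± 0.193), and Ndufs1 was higher by 0.45 ± 0.109 (adjusted p = 0.0145). Ndufb2 had 41.5 and 53.2 CPM against 32.3, 27.6 and 32.5 CPM in WT (0.60 ± 0.194). With library totals the call of Ndufb2 was lost (adjusted p = 0.0532). Ndufb2 overlaps exons of Adck2 on its own strand and of Braf on the other. As the strand of counting is not known, reads also cannot be told apart where Ndufs1 overlaps Gm11602, Ndufa13 Tssk6, Atp5j Gabpa, Atp5f1 Wdr77 and Atp5d Dos, all on the opposite strand. The other 6 genes (Atp5j2, Cox5b, Cox7a2, Cox7b, Ndufb10 and Uqcrh) were higher by 0.35 to 0.43.

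These 11 calls rested on single libraries. Without either Tet2-/- D6 library there were 0, and then 0% or 0.938% of all genes were called higher. Without WT D6 replicate 1 there were 20 (15.2% of all genes higher), without WT D6 replicate 2 or 3 there were 2 (7.4% and 5.51%), and without DKO D6 replicate 1 there were 7 (9.95%). With library totals in place of TMM there were 5, while 1611 of all genes were higher and 2723 lower (1994 and 2406 with TMM).

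At D6 the Tet2-/- libraries also differed from WT in markers of cell types, where 12.9% of all genes were higher and 15.6% lower. Neural markers were higher in 3 of 4 tested (Pax6, Sox1 and Tubb3), and the 5 genes of the list summed to 195 to 205 CPM in Tet2-/- and 95.7 to 128 CPM in WT. Cardiac and muscle markers were lower in 4 of 8, with 13.1 to 15.5 CPM against 26 to 37.4 CPM in WT, and endothelial and blood markers in 2 of 5, with 53.8 to 61.1 CPM against 80.6 to 146 CPM. Of 7 pluripotency markers, Pou5f1, which is expressed in naive and primed cells alike, was higher and Dppa3 lower, and the list summed to 1570 to 1690 CPM in Tet2-/- against 603 to 1270 CPM in WT. Germline markers were higher in 2 of 6 (77.7 to 77.8 CPM against 32.6 to 69.5 CPM). Some of these differences were already there at D0. The neural sum was then 239 to 299 CPM in Tet2-/- against 142 to 225 CPM in WT. The cardiac and muscle sum was 25.1 to 28.9 CPM against 29.3 to 42 CPM. The endothelial and blood sums overlapped at D0 (97.7 to 111 and 99.6 to 119 CPM). The germline sum was lower in Tet2-/- at D0 (36.6 to 41.7 against 59.7 to 95.4 CPM). No marker of these lists was at 0 in every library of a group. The part of these differences in the levels of the subunit genes was not tested.

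In Tet1-/-, DKO and TKO at D6, edgeR called 0 subunit genes and 0% of all genes in either direction. At an unadjusted p under 0.05 there were 3 subunit genes in Tet1-/-, 7 in DKO and 17 in TKO. Of all genes, 1949, 2250 and 3629 passed that limit. DESeq2 called 0, 0 and 3 subunit genes, the last being Ndufs7, Ndufa8 and Atp5sl, all lower in TKO. The smallest adjusted p was 0.324 for Cox6b2 in Tet1-/- (-0.71 ± 0.216, SE), 0.285 for Cox4i2 in DKO (-1.22 ± 0.473) and 0.076 for Ndufs7 in TKO (-0.47 ± 0.117). Ndufs7, an iron-sulfur subunit of complex I, had 40.4 and 34.3 CPM in TKO at D6 against 52.1, 50.4 and 54.1 CPM in WT, with no overlap. Without WT D6 replicate 1 TKO had 5 calls. Calls over all genes can change in that fit as well, so these are not read as particular to the subunit genes.

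Genes that work with the subunits were read from lists of names. Their counts stand against 33.5% of all genes that rose and 32.8% that fell in WT, and 20.4% and 19.6% in Tet2-/-. Of 77 mitochondrial ribosomal proteins tested, 66 fell in WT and 0 rose, with a median of -0.68, and in Tet2-/- 43 fell. Mrpl20 had the largest change in WT (-1.45 ± 0.186, SE). Of 12 regulators of mitochondrial gene expression tested, 7 fell and 1 rose in WT, with Tfb2m, a transcription factor of mitochondrial DNA, falling most (-0.88 ± 0.15). Nrf1 changed by -0.42, Gabpa by -0.62 and Tfam by -0.77 in WT, all called. At D6, 4 of the 12 regulators were higher in Tet2-/- than in WT (Nrf1 by 0.36, Gabpa by 0.38, Tfam by 0.28 and Pprc1 by 0.34) and 2 were lower (Polg at -0.69 and Ppargc1b at -0.93), against 12.9% and 15.6% of all genes.

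Of the assembly factors tested in WT, 7 of 13 for complex I, 2 of 2 for complex II, 3 of 5 for complex III, 9 of 17 for complex IV and 2 of 3 for complex V fell, and 1 for complex IV rose. The called genes with the largest changes in these lists were Ecsit (-1.18), Sdhaf1 (-0.92), Bcs1l (-0.51), Coa6 (-1.34) and Atpaf1 (-1.01). Of cytochrome c and other chain genes outside the name rule, 5 of 7 fell in WT, with the testis cytochrome c gene Cyct changing most (-1.40 ± 0.552), and 1 of 7 fell in Tet2-/-. Among TCA cycle enzymes, 9 of 13 fell and 1 rose in WT, with Mdh2 at -0.79. Of 10 hypoxia-responsive genes, 6 rose and 2 fell in WT, with Ndrg1 at 1.86, and 2 rose and 0 fell in Tet2-/-, the former close to the share of all genes.

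Pluripotency markers moved with the same contrast: 6 of 7 fell in WT (Zfp42 by 3.49 on the log2 scale) and 5 of 7 in Tet2-/-. Their sum went from 4250 to 4280 CPM in WT at D0 to 603 to 1270 CPM at D6, and from 4340 to 4400 CPM to 1570 to 1690 CPM in Tet2-/-. In WT, cardiac and muscle markers had 3 rises and 1 fall of 8 (Actc1 by 9.39), endothelial and blood markers 1 and 1 of 5 (Kdr rose by 4.93), neural markers 1 and 2 of 4 (Tubb3 fell by 3.68) and germline markers 2 and 4 of 6 (Dazl fell by 2.17). Of all genes, 33.5% rose and 32.8% fell. The cardiac sums overlapped between the days (29.3 to 42 CPM at D0, 26 to 37.4 CPM at D6). So did the endothelial sums (99.6 to 119 and 80.6 to 146 CPM) and the germline sums (59.7 to 95.4 and 32.6 to 69.5 CPM). The neural sum was lower at D6 (142 to 225 and 95.7 to 128 CPM). Whether the cell make-up accounts for the fall of the subunit genes was not tested.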

How the data were processed

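RNA was poly(A)-selected and sequenced paired-end. The authors mapped the reads with STAR 2.5.1 to mm9 and deposited raw counts per RefSeq transcript line, with 1 table a day; the counting program differs between the sources used here, and strand was not given. The study scaled its data with spike-in RNA, which could not be repeated here because 0 spike-in lines were in the tables. Where a symbol had several lines, only its first was kept.

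Counts were filtered with filterByExpr (minimum count 10), scaled by TMM and tested with the quasi-likelihood test of edgeR 4.0.16 (limma 3.58.1, R 4.3.3), with Benjamini-Hochberg adjustment over all genes tested. Each day was fitted alone for knockout against WT, and all 24 libraries together for the change over the days and its difference from WT. DESeq2 1.42.0 was an alternative, beside other scalings, filters, transcript lines, a 2-fold limit, replicate blocks and leaving out each library. The scripts were tested on simulated data. Totals of 18400463 to 37290208 counts put the limit of 3 counts at 0.0814 to 0.151 CPM, for counting error only. Replicates are clones of 1 parental clone, so p-values measure the spread between clones. Day and sequencing table coincide, so a batch of the day cannot be told apart from it.

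The members and all gene lists were chosen with earlier results of these data known. Genes named in the text were 10 core subunits, pairs of isoforms, the 3 largest called changes per complex in each direction in WT over the days, all called genes of the other comparisons (the 5 largest in each direction where over 10 were called, or the smallest adjusted p where none was), and the called gene with the largest change of each pathway list. Other names were chosen after their values were seen. Clones shared between the days paired the samples by the labels (11 clones, correlation of deviations 0.061 to 0.164).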

Additional observations from a re-analysis of the deposited data

Results flagged for a closer look

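The change from D0 to D6 differed from that of WT in 8 subunit genes by edgeR's quasi-likelihood test of the difference, with Benjamini-Hochberg adjustment. In Tet2-/- the log2 difference was 0.64 ± 0.135 (SE) for Ndufs1, 0.52 ± 0.136 for Cox7a2, 0.5 ± 0.155 for Uqcrh, 0.49 ± 0.158 for Cox7b, 0.45 ± 0.128 for Atp5j and 0.43 ± 0.128 for Atp5f1, with adjusted p between 0.00695 and 0.0429. The call of Cox7b was lost with library totals and without a filter on low counts. Cox6b2 differed in the other direction in Tet2-/-, by -1.43 ± 0.458 (adjusted p = 0.0411). The 7 calls in Tet2-/- became 0 without Tet2-/- D0 replicate 1. In TKO, Atp5d differed by -0.5 ± 0.146 (adjusted p = 0.0479). Its call was lost with library totals (adjusted p = 0.0866), without a filter on low counts (0.0676) and without any 1 of most libraries. Of all genes, 7.87% were called higher and 8.11% lower for this difference in Tet2-/-, against 7.41% and 1.23% of the subunit genes, and 2.8% and 3.17% in TKO, against 0% and 1.23%, so that the counts were at or below the share of all genes.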

How the results depend on the processing

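Each complex's median stayed below 0 over the days with library totals and with the transcript line of highest mean. The counts below are of subunit genes called. With a 2-fold limit added, all subunit genes called over the days fell. WT and Tet1-/- had 11 each (13.6% of those tested, against 13.3% and 11.2% of all genes). TKO and DKO had 16 each (19.8%, against 8.63% and 10.6%), and Tet2-/- had 4 (4.94% against 6.44%). Against WT at D0, 1 was lower in Tet2-/- and 1 in TKO (2.37% and 2.12% of all genes). At D6 Tet2-/- had 0, with 742 of all genes higher and 1459 lower. For the difference in change, 1 was lower in Tet2-/- (5.13% of all genes) and 0 were called in TKO. DESeq2 called 2 in DKO and 10 in TKO at D0, 3 in TKO at D6 (all lower, with 836 of all genes) and 4 for the difference in TKO (all lower, with 907). Library totals gave 5 in Tet2-/- at D6 (all higher, with 1611 of all genes). They gave 0 for the difference in TKO, where 491 of all genes were higher and 392 lower. Fitting without a filter also gave 0 for the latter (373 and 454 of all genes). With library totals the median log2 fold changes over the days (order WT, Tet1-/-, Tet2-/-, DKO, TKO) were -0.478, -0.467, -0.341, -0.514 and -0.531 for complex I, -0.282, -0.401, -0.294, -0.484 and -0.443 for complex II, -0.653, -0.662, -0.496, -0.743 and -0.685 for complex III, and -0.536, -0.597, -0.4, -0.624 and -0.603 for complex V, with -0.556 in Tet1-/- and -0.576 in DKO for complex IV. The scaling shifts all genes by construction. Where not stated, the cause was not tested. Atp5g2 in WT turned to 0.08 with library totals and to 0.01 without WT D6 replicate 3, and Cox4i2 to -0.07 without the latter, none of them called.

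Leaving out 1 library, the count ran from 0 to 19 in TKO, 0 to 9 in DKO, 0 to 2 in Tet1-/- and 0 to 12 in Tet2-/- at D0, and from 0 to 5 in TKO, 0 to 0 in DKO and Tet1-/- and 0 to 20 in Tet2-/- at D6. Over the days it ran from 68 to 75 in WT, 65 to 73 in TKO, 68 to 73 in DKO, 69 to 75 in Tet1-/- and 34 to 60 in Tet2-/-, and for the difference from 0 to 5 in TKO, 0 to 0 in DKO and Tet1-/- and 0 to 12 in Tet2-/-. Cox4i2 in WT over the days ran from -0.07 to 0.77 and Atp5g2 from -0.14 to 0.01. A lone remaining library was assumed to vary like the other groups.

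With the clone as replicate block, 72 fell and 2 rose over the days in WT (5275 and 5329 of all genes). The counts were 68 and 1 in TKO (4120 and 4179) and 72 and 1 in DKO (4601 and 4479). They were 71 and 0 in Tet1-/- (4235 and 4224) and 59 and 0 in Tet2-/- (3313 and 3347). In that fit 8 differed in Tet2-/- (7 higher and 1 lower, with 1570 and 1652 of all genes) and 1 in TKO (lower, with 719). Atp5s in Tet1-/- lost its call (0.41, adjusted p = 0.129). Within a day the samples share only a number (correlations -0.288 to 0.253). That replicate block gave 11 calls in Tet2-/- at D6, 8 of them shared with the fit without it, and Ndufv2 in TKO at D0 lost its call (adjusted p = 0.0515).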
